A study of Mus musculus with 8 samples.

Results

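Cultured mouse pancreatic buds labelled as treated with VEGFR2i were compared with buds labelled as treated with vehicle. The members are 4 of the 8 arrays of the series, taken by their titles: the first array and the technical repeat (TR) of the explants with VEGFR2i, and the same for the explants with vehicle. Both groups were buds of wild type genotype, taken at stage e12.5 and cultured for 2 days. VEGFR2i reads as an inhibitor of VEGF receptor 2 (the protein of Kdr), and the labels give no compound name or dose. Each group was 1 pool of RNA from 5 explants, hybridized to 2 Affymetrix mouse gene 1.0 ST arrays, so the spread between the arrays of a pool is technical and no test of the treatment was possible. The remaining 4 arrays, used here only for side by side values, came from fresh e12.5 buds, 1 pool from 3 Pdx1-tTA; TET-VEGF embryos and 1 pool from 3 Pdx1-tTA littermates, each on 2 arrays. In those mice the Pdx1 promoter drives the tetracycline transactivator, which switches on the VEGF transgene.

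The pancreatic bud is an epithelium that branches inside mesenchyme and is threaded by blood vessels. Its tips make digestive enzymes as they mature into acini, and its trunk gives ducts and endocrine cells. VEGF made by the epithelium acts on VEGF receptor 2 of endothelial cells, where it drives survival, sprouting and the extracellular signal-regulated kinase (ERK) cascade. Mural cells wrap the vessels, and macrophages settle in the organ early. The comparison addresses what happens to the bud when signalling through this receptor is blocked in culture.

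Endothelial genes ran against the labels. Cdh5, the adhesion molecule of endothelial junctions, read 8.65 and 8.67 on the arrays labelled VEGFR2i and 4.73 and 4.40 on the arrays labelled vehicle (log2 expression, the first array of each pool before its repeat, as throughout). The inhibitor's own target, Kdr, read 8.20 and 8.04 against 6.01 and 6.04. Both genes were therefore higher in the pool whose label names a block of the receptor, by 17.1-fold and 4.28-fold, and the arrays of the pools did not overlap. A transcript level does not measure receptor activity, so Kdr does not check the labels directly. The labels were kept as they stand, and each direction below belongs to the pool labelled VEGFR2i or the pool labelled vehicle. Whether the labels are in their right order was not tested.

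Markers of the pancreatic bud were present in both pools. Pdx1, the factor that defines the pancreatic territory, read 8.49 and 8.37 in the pool labelled VEGFR2i and 8.46 and 8.40 in the pool labelled vehicle. Neurog3, which commits progenitors to the endocrine lineage, read 10.02 and 9.93 against 9.93 and 9.92. Cpa1, a carboxypeptidase of tips and acini, read 12.80 and 12.79 against 12.92 and 12.95. The arrays of a pool correlated at 0.997 and 0.998 over genes and those of different pools at 0.995 to 0.996. Between the arrays of a single pool, 25 genes (VEGFR2i) and 4 genes (vehicle) differed by 1.5-fold or more. The median absolute difference between pool means was 0.07, beside 0.07 and 0.06 between single repeat arrays of a pool. A pool mean averages 2 arrays and carries less technical error than a single array, so these medians are not like for like.

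A gene was called higher or lower if its pool means were 1.5-fold or more apart (0.585 in log2 units) with both arrays of a pool above both of the other. By this rule the pools do not overlap for any called gene, so statements below that arrays were apart restate the call. Among 19938 genes, the pool labelled VEGFR2i had 363 that were higher (1.82%) and 74 were lower (0.371%), together 2.19%. Counts of list members below are to be read beside these shares. The median difference over all genes was -0.00. The higher genes differed by a median of 0.84 (1.78-fold), with 123 of them at 2-fold or more, 22 at 4-fold or more and 7 at 8-fold or more. The lower genes differed by a median of -0.70 (1.63-fold), and only 10 of them reached 2-fold. The higher genes are thus the larger group and hold the larger differences. Just inside the threshold stood the caveolar gene Cav2 (0.585) and, on the lower side, Ggh (-0.586), which encodes an enzyme of folate metabolism. The apelin receptor gene Aplnr (0.584) and the acinar factor gene Ptf1a (-0.579) lay just outside it.

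**Figure D1:**
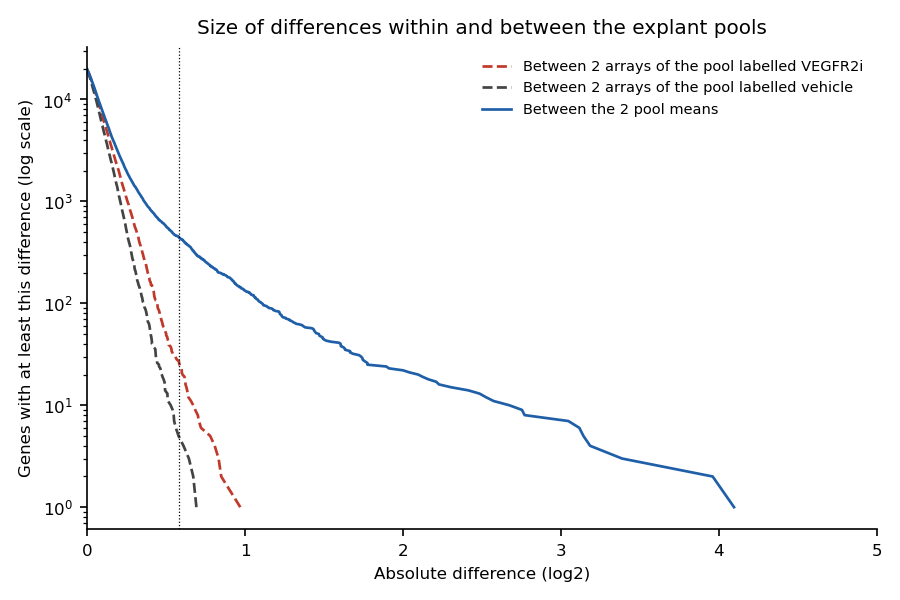
Number of genes (y axis, log scale) with at least a given absolute log2 difference (x axis), between the arrays of the pool labelled VEGFR2i (red, dashed), between those of the pool labelled vehicle (black, dashed) and between the 2 pool means (blue). The dotted line marks 1.5-fold, which 25 and 4 genes pass between arrays of a pool, and the blue curve runs out to 4.10. Pool means carry less technical error than single arrays, so the blue and dashed curves are not like for like.

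The calls depended on the level of the gene. Among the 7367 genes under 4 in the vehicle pool, 0.69% were higher and 0% were lower. The share of higher genes was largest at vehicle levels from 5 to 6, at 4.81%, and fell to 0.17% for the 576 genes at 10 or above. The share of lower genes was 0.91% from 5 to 6, 0.21% from 7 to 8 and 1.04% at 10 or above. Genes near the floor of the array have little room to be lower, which limits what the lowest bin can show. As a guide to dim signal, 1027 olfactory receptor genes in the explants had a median level of 2.95 and a 95th percentile of 3.42. Of the 363 higher genes, 138 lay under 5 in the vehicle pool, and 47 lay under 5 in both pools. Array summaries compress differences near background, so the fold of a gene that is this dim in a pool is less certain than its direction.

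**Figure D2:**
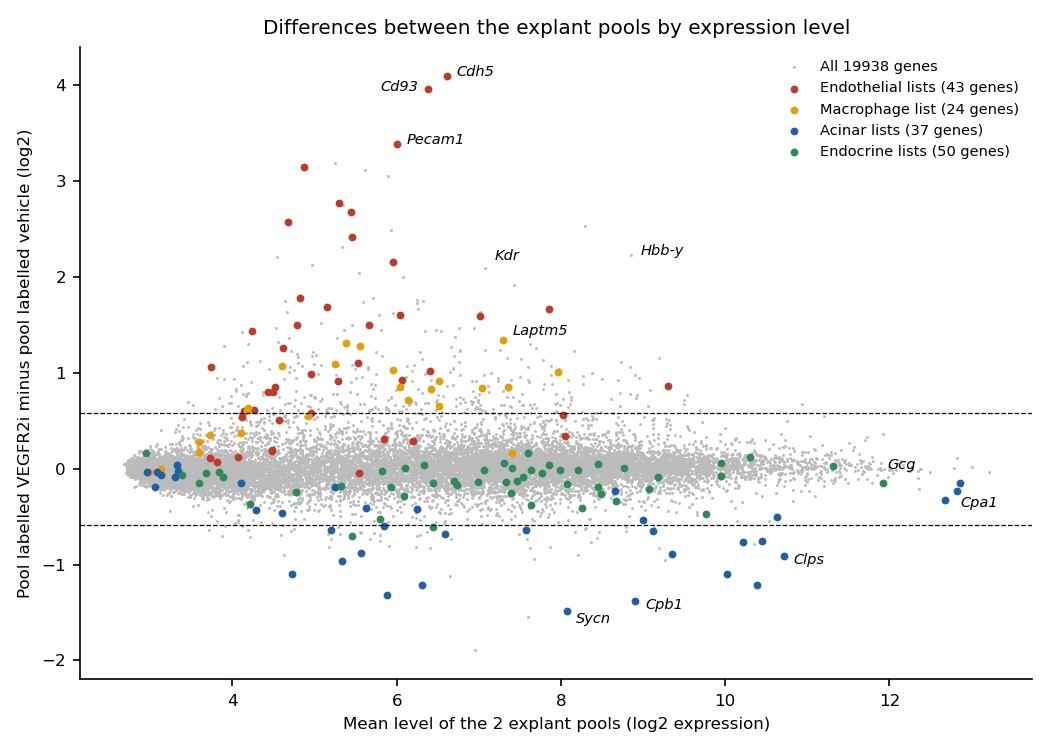
Difference between the explant pools (y axis, log2, VEGFR2i minus vehicle) against the mean level of both pools (x axis, log2) for all 19938 genes, with endothelial, macrophage, acinar and endocrine lists in colour. Dashed lines mark 1.5-fold in each direction. The endothelial genes (red) reach 4.10, and the acinar genes (blue) lie below 0 with 1 exception.

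Endothelial junction genes showed the largest differences. Of 13 measured members, 8 were higher and none was lower, with a median difference of 1.49 (2.81-fold). Pecam1, the platelet and endothelial adhesion molecule, read 7.84 and 7.56 in the pool labelled VEGFR2i and 4.35 and 4.27 in the pool labelled vehicle. Esam, an adhesion molecule of tight junctions, read 6.80 and 6.75 against 3.85 and 4.36. Cldn5, the endothelial claudin, read 6.82 and 7.24 against 4.96 and 4.78. No array of the vehicle pool reached the level of a VEGFR2i array for any of them. Cd34, a sialomucin of endothelium and progenitors, read 8.75 and 8.63 against 7.07 and 6.98, a 3.17-fold difference. Array medians of this list were 6.80 and 6.75 in the pool labelled VEGFR2i and 4.73 and 4.40 in the pool labelled vehicle. In bulk RNA, a difference in the number of endothelial cells and a difference in RNA per endothelial cell cannot be told apart.

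Other endothelial surface and intracellular genes followed the same direction. Of 14 surface genes, 10 were higher, every one of the 14 differed in the positive direction, and the median was 1.35. The C-type lectin gene Cd93 read 8.39 and 8.33 against 4.30 and 4.50, or 15.6-fold higher. Adgrf5, an adhesion receptor, read 6.75 and 6.62 against 3.90 and 3.92. Clec14a and Plvap, which encode a lectin of vessels and the protein of fenestral diaphragms, were higher by 1.78 and 1.68. Among 16 intracellular and secreted endothelial genes, 12 were higher, with a median of 0.82. Rasip1, which is needed for lumen formation, read 6.59 and 6.74 against 4.09 and 4.40. Arap3, a regulator of small GTPases, differed by 1.49. Across these 3 lists, 30 of 43 measured genes were higher and 42 differences were positive, beside 1.82% of all genes called higher. The median was 0.99, and 14 of the 43 genes were under 5 in both pools.

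**Figure D3:**
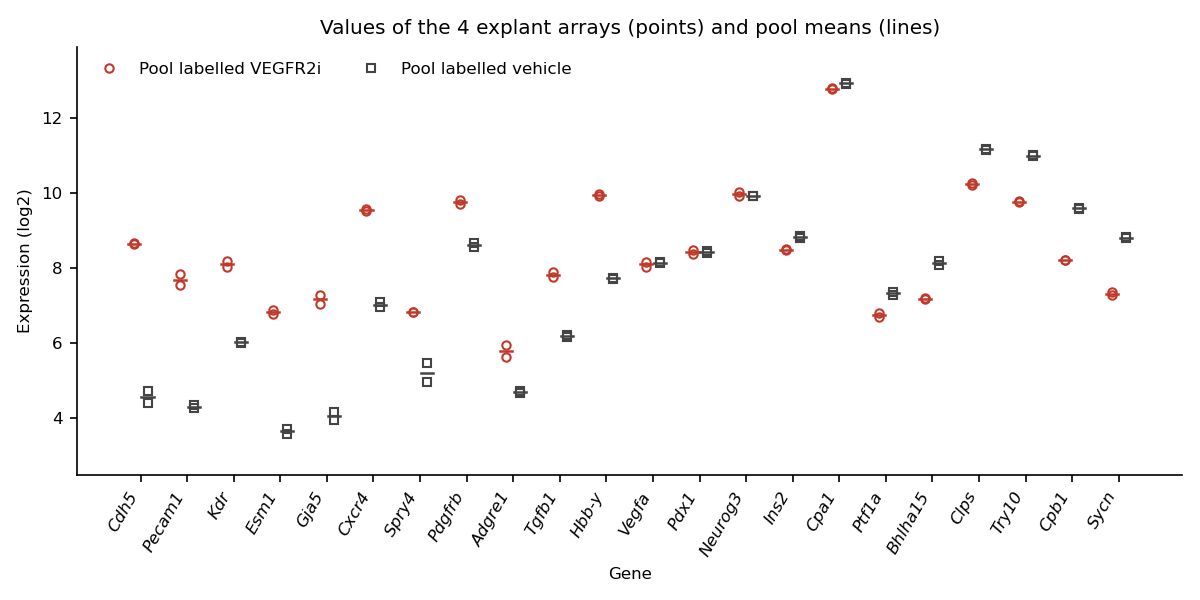
Log2 expression of 22 genes on each of the 4 explant arrays, with red circles for the pool labelled VEGFR2i, black squares for the pool labelled vehicle and short lines for pool means. The symbols of the pools are far apart for Cdh5 through Hbb-y, nearly coincide for Vegfa, Pdx1 and Neurog3, and are reversed from Ptf1a to Sycn.

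The promoters of 3 endothelial genes are shown because these genes moved together and factors of the ETS family, which bind a GGAA core, are known regulators of endothelial genes. Among genes with a promoter entry, they are the 3 largest increases whose window holds the letters AGGAAG on either strand. The window is 250 bases before the RefSeq start (GRCm38.p6), and the matches were part of the choice. Cdh5, Cd93, Pecam1 and Esm1 had no entry, so their promoters were not searched. Capitals mark the match, which is CTTCCT where it lies on the opposite strand.
Emcn, chr3:137340828-137341077, plus strand: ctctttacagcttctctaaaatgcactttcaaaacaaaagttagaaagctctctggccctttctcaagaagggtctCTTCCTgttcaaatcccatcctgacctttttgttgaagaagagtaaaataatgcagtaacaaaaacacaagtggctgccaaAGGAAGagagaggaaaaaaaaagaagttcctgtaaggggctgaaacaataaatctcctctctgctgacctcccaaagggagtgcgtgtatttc
Gja5, chr3:97032152-97032401, plus strand: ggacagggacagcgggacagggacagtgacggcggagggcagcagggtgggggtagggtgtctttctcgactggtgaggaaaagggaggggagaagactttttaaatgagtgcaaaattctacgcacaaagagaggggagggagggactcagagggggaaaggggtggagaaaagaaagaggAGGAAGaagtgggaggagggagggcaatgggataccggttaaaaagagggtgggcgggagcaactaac
Tie1, chr4:118489850-118490099, minus strand: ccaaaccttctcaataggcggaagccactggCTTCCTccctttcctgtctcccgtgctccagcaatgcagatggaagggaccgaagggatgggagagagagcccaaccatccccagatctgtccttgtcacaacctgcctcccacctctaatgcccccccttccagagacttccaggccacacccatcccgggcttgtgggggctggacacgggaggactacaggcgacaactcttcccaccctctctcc
Emcn, which encodes a sialomucin of veins and capillaries, has matches beginning 174 and 93 bases before the start, Gja5 has 1 at 68 bases and Tie1 has 1 at 219 bases. Of the 20 largest increases, 14 had a promoter entry and 7 of those held the letters. Among 22 endothelial list members with an entry, 15 held them (68.2%), beside 28.2% of 15614 measured genes with an entry. Over all called genes the shares were 37.7% of 265 higher genes and 22% of 59 lower genes. A match to 6 letters is a description of the window and says nothing of binding.

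Among VEGF ligands and receptors, all 3 receptor genes were higher, and the arrays of the ligand Vegfa overlapped. Flt1, VEGF receptor 1, read 6.60 and 6.38 in the pool labelled VEGFR2i and 4.25 and 4.12 in the pool labelled vehicle. Flt4, VEGF receptor 3, read 4.59 and 4.73 against 3.52 and 3.66, dim in both pools. Both receptors were higher on every array of the pool labelled VEGFR2i. Vegfa, the ligand of receptors 1 and 2, read 8.16 and 8.05 against 8.16 and 8.13. Vegfc, a ligand of receptor 3, was higher by 1.07, at 5.60 and 5.17 against 4.29 and 4.34. The coreceptor Nrp2 (0.40) and the ligand Pgf (0.34) did not pass the size rule. In all, 4 of 10 genes of the family were higher and none was lower.

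The angiopoietin receptors differed while their ligands did not pass the rule. Tie1, the orphan receptor of the family, read 7.40 and 7.43 against 4.49 and 4.24. Tek, the angiopoietin receptor Tie2, read 4.77 and 4.90 against 3.55 and 3.53. Ptprb, the phosphatase that dampens Tek, read 5.11 and 5.33 against 3.90 and 3.89. These are the 3 higher genes of 6, and the arrays of the pools were apart for each. Angpt1 differed by 0.51, Angpt2 by 0.06 and Angpt4 by -0.28, with every pool mean under 5.

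Tip cell genes, which mark sprouting endothelium, were higher in 7 of 11 cases, beside 1.82% of all genes, with a median of 0.99. Esm1, a proteoglycan gene induced by VEGF, read 6.90 and 6.79 in the pool labelled VEGFR2i and 3.72 and 3.59 in the pool labelled vehicle, which lies close to the olfactory receptor guide. Cxcr4, the receptor of the chemokine CXCL12, read 9.58 and 9.53 against 7.09 and 6.97. Pdgfb, by which endothelium recruits mural cells, read 6.80 and 6.88 against 5.83 and 5.88. The members that fell short included Apln (0.13) and Angpt2 (0.06), also tip cell genes, so the list was not uniform.

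Arterial and venous genes were counted apart. Of 12 arterial genes, 8 were higher with a median of 0.99, and of 5 venous genes 1 was higher with a median of 0.51. Over all genes 1.82% were higher. The connexin gene Gja5 read 7.29 and 7.05 against 4.16 and 3.95. Gja4, another arterial connexin, read 7.18 on both arrays against 4.55 and 4.83. Hey1, a Notch target of arteries, read 6.40 and 6.01 against 4.68 and 4.73. All 3 were higher without overlap. The higher gene of the venous list was Emcn (6.59 and 6.30 against 3.42 and 3.19). Nr2f2, the factor of vein identity that mesenchyme also expresses, differed by 0.51. Ephb4, the venous ephrin receptor, read 9.30 and 9.29 against 9.30 on both arrays. Aplnr differed by 0.584 and passed without the repeat array of either pool, which makes 2 venous genes. Of 10 lymphatic and sinusoidal genes, Stab1 (1.44) and Flt4 were higher, and 8 members lay under 5 in both pools.

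Some transcription factors of endothelium passed the rule and others did not. Of 23 measured, 11 were higher and none was lower, with a median of 0.51. Bcl6b, a repressor found in vessels, read 6.87 and 6.57 in the pool labelled VEGFR2i and 4.10 and 3.84 in the pool labelled vehicle. Sox7, of the SoxF group, read 6.72 and 6.40 against 4.52 and 4.51. The ETS factors Erg (1.75), Fli1 (1.74) and Ets1 (1.47), and Epas1 (1.74), the hypoxia-inducible factor HIF-2 alpha, were also higher. Klf2, a factor induced by blood flow, read 5.89 and 5.96 against 6.07 and 5.99, so it did not share the direction. The list median was 0.34 without the repeat array of the pool labelled vehicle.

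Receptors of lipid and vasoactive mediators on vessels included several higher genes. S1pr1, a sphingosine phosphate receptor that stabilizes vessels, averaged 7.08 ± 0.11 (SD, n = 2 arrays) with the label VEGFR2i and 5.08 ± 0.07 with the label vehicle. S1pr3, another receptor of the family, read 8.36 and 8.31 against 7.59 and 7.52. These were the 2 higher genes of 10 in the sphingosine list, whose median was -0.02. Gucy1b1 and Gucy1a1, the subunits of the nitric oxide receptor, differed by 1.43 and 0.94. Ednrb, an endothelin receptor, differed by 1.05, and Nos3, endothelial nitric oxide synthase, read 5.44 and 5.46 against 4.31 and 4.60. These 4 were the higher genes of 15 vasoactive genes. Both the synthase and its receptor subunits were thus higher on all VEGFR2i arrays.

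Lipid handling genes of capillaries showed 3 higher members of 7. Cd36, a fatty acid translocase shared with macrophages, read 7.24 and 7.16 against 5.71 and 5.80. Fabp4, a fatty acid binding protein, read 4.29 and 4.27 against 3.34 on both arrays. Lpl, lipoprotein lipase, read 7.85 and 7.89 against 7.22 and 7.20. The pools did not overlap for these. Gpihbp1, the anchor of lipoprotein lipase on capillaries, differed by 0.50 and did not pass the rule.

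Guidance genes, which vessels share with nerves, were mixed. Of 22 measured, 8 were higher and none was lower by the rule, with a median of 0.16. Robo4, the endothelial roundabout receptor, read 5.27 and 5.21 in the pool labelled VEGFR2i and 3.94 and 4.03 in the pool labelled vehicle. Plxnd1, the plexin of vessels, read 8.87 and 8.89 against 7.87 and 7.89, and Sema3g, a semaphorin of arteries, 6.69 and 6.66 against 5.87 and 5.81. The netrin receptor Unc5b, which is also a tip cell gene, differed by 1.24. Efnb2, the arterial ephrin, differed by 0.89 and Efna1, an ephrin ligand, by 0.93. The lowest value of the list was -0.53, of Sema3c, a secreted semaphorin.

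Negative feedback genes of the ERK cascade, which the cascade itself induces, were listed with its downstream ETS factor genes Etv1, Etv4 and Etv5. Of these 13 genes, 7 were higher, beside 1.82% of all genes. Their median was 0.61 (1.53-fold), and 12 of 13 differences were positive. Spry4 read 6.83 on both VEGFR2i arrays and 4.98 and 5.46 on the vehicle arrays. Dusp6, the phosphatase of ERK, read 8.13 and 8.05 against 7.03 and 6.87. Spry2, another Sprouty inhibitor, read 7.46 and 7.33 against 6.59 and 6.64. The pools were apart for all 3. Etv5, an ETS factor downstream of ERK, differed by 0.70, Spry1 by 0.68 and Spred1 by 0.67. When both first arrays and both repeats had to pass 1.5-fold separately, 4 of the 7 remained and Spry1, Spred1 and the phosphatase gene Dusp5 were lost. Endothelial genes differed in the same direction, and their part in this list was not tested.

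Immediate early genes differed less. Of 26 measured, 3 were higher, with a median of 0.11. Egr2, a zinc finger factor, read 5.10 and 4.82 against 3.92 on both arrays. Egr1 was higher by 0.67 and Dusp1, a phosphatase of stress kinases, by 0.66. Egr1 did not pass when first arrays and repeats were taken separately, and Dusp1 did not pass without the first array of the pool labelled VEGFR2i. Notch pathway genes held 7 higher members of 20, with a median of 0.22. The Hey1, Dll4, Notch4 and Hey2 genes of this list are also endothelial, and of these Dll4, a ligand, differed by 1.44 and Notch4, a receptor, by 1.09. Mfng, a glycosyltransferase that modifies Notch receptors, read 6.86 and 7.02 in the pool labelled VEGFR2i and 6.14 and 6.22 in the pool labelled vehicle. Hes1, the Notch target of progenitors, differed by 0.18.

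**Figure D4:**
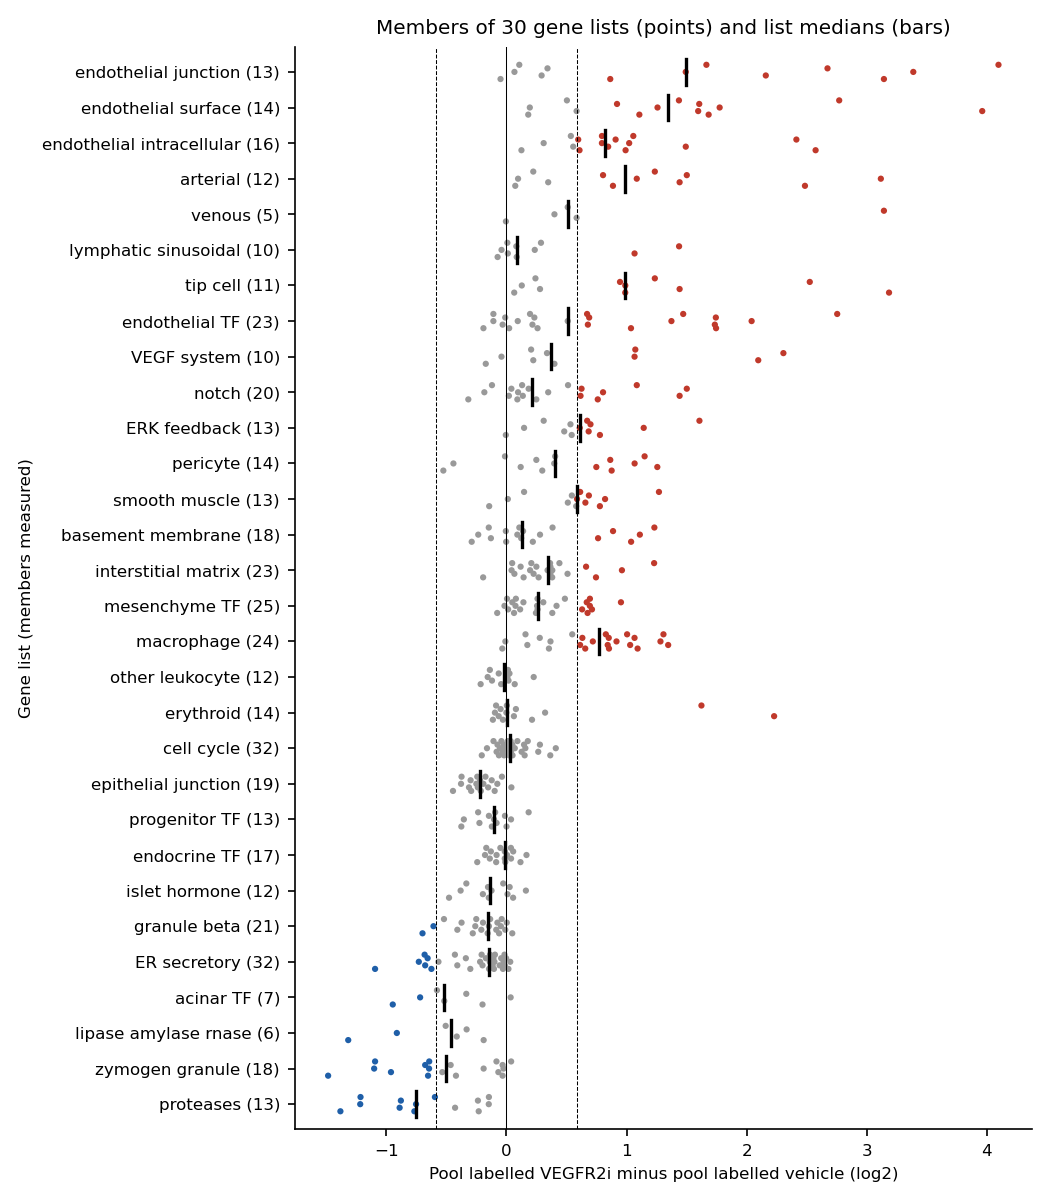
Differences of the members of 30 gene lists (x axis, log2, VEGFR2i minus vehicle), with the number measured in brackets. Red points were higher and blue points lower by the size rule, grey points were not called, and black bars are list medians. Medians run from 1.49 for endothelial junction genes to -0.75 for digestive proteases.

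Pericyte genes were higher in 6 of 14 cases, beside 1.82% of all genes, with a median of 0.40. Rgs5, a G protein regulator of pericytes, read 8.38 and 8.27 in the pool labelled VEGFR2i and 7.08 and 7.05 in the pool labelled vehicle. Pdgfrb, the receptor for platelet-derived growth factor B, read 9.73 and 9.82 against 8.68 and 8.56. Abcc9 and Kcnj8, the subunits of the potassium channel of mural cells, differed by 1.07 and 0.75. All arrays of the pools were apart for these 4. Cspg4, the NG2 proteoglycan, differed by 0.88 and Mcam, an adhesion molecule of vessels, by 0.86. Of the 14 differences 3 were negative, the lowest being Vtn, vitronectin, at -0.53 and Anpep, an aminopeptidase, at -0.44, and neither was called.

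Contractile genes differed as well. Of 13 smooth muscle genes, 7 were higher (beside 1.82% of all genes) and 12 differences were positive, with a median of 0.59. Itga8, an integrin of mesenchyme and smooth muscle, read 7.36 and 7.23 against 5.96 and 6.09. Myh11, smooth muscle myosin, read 7.82 and 7.70 against 6.96 and 6.92. Smtn, smoothelin, differed by 0.78, and no arrays of the pools overlapped for these 3. The calponin gene Cnn1 (0.69), Actg2 (0.66) and Tagln (0.61) were also higher, while Tagln lost its call without the repeat array of the pool labelled vehicle.

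Basement membrane genes differed by member. Of 18 measured, 5 were higher, with a median of 0.13. Lama4, the laminin alpha chain of vessels, read 8.81 and 8.74 in the pool labelled VEGFR2i and 7.57 and 7.52 in the pool labelled vehicle. Col15a1, a collagen of capillaries and muscle, read 7.32 on both arrays against 6.25 and 6.17. Col4a2 (1.04), Col4a1 (0.89) and the linker Nid1 (0.76) completed the 5. Lama5 and Lamb3, which encode laminin chains of epithelium, differed by -0.29 and -0.23 and were not called.

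Interstitial matrix and mesenchymal factor genes leaned the same way. Of 23 matrix genes, 4 were higher and 22 differences were positive, with a median of 0.34. Thy1, a surface glycoprotein of fibroblasts, read 7.35 and 7.42 against 6.38 and 5.93. Has2, which makes hyaluronan, read 8.75 and 8.76 against 7.84 and 7.74. Postn, periostin, read 8.58 and 8.40 against 7.71 and 7.78. The fourth was Tnc, tenascin C, at 0.66, which did not pass when first arrays and repeats were taken separately, and Vcan (0.51) and Bgn (0.44), both proteoglycan genes, were not called. Of 25 mesenchymal transcription factors, 7 were higher, 23 differences were positive and the median was 0.26. Snai1 (0.69), Zeb1 (0.68) and Zeb2 (0.67), which repress epithelial genes, were among the 7, with Tbx2 (0.71), Hlx (0.69) and Tlx1 (0.95). Markers of mesenchyme, mural cells and endothelium thus lay on the same side, and the part of each in these differences was not tested. Mesothelial genes, 8 in number, had no call and a median of 0.09.

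Macrophage genes were higher in 16 of 24 cases, beside 1.82% of all genes, with a median of 0.77 (1.71-fold) and 22 positive differences. Laptm5, a lysosomal protein of blood cells, read 7.94 and 7.99 in the pool labelled VEGFR2i and 6.67 and 6.56 in the pool labelled vehicle. Mrc1, the mannose receptor, read 6.18 and 6.21 against 4.85 and 4.97. Adgre1, the classical surface antigen of mouse macrophages, read 5.96 and 5.63 against 4.68 and 4.74. Cx3cr1, the fractalkine receptor, read 6.59 and 6.34 against 5.32 and 5.56. The pools were apart for each of these, and the oxidase subunit gene Cybb (1.31) and the integrin gene Itgam (1.07) had the same direction. Array medians of the list lay between 6.08 and 6.15 with the label VEGFR2i and between 4.82 and 4.86 with the label vehicle, and 8 of the 24 genes were under 5 in both pools. Cd163 (-0.03) and Ms4a7 (-0.01), macrophage genes too, did not differ by the rule.

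Other immune lists showed few calls. Of 12 genes of other leukocytes, none was called, the median was -0.02 and 11 lay under 5 in both pools. Among 12 chemokine and complement genes, Cxcr4, C3ar1 and C5ar1 were higher, the latter pair being complement receptors of myeloid cells (1.47 and 0.77). None of 10 interferon and antigen presentation genes was called, with a median of 0.08. Of 9 megakaryocyte genes, Plek (1.10) and Vwf (0.91), which myeloid and endothelial cells also express, were higher. The platelet integrin gene Itga2b read 3.84 and 3.80 against 4.03 and 3.91.

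Red blood cell genes differed in 2 of 14 cases. Hbb-y, an embryonic beta-like globin, read 9.99 and 9.94 in the pool labelled VEGFR2i and 7.75 and 7.72 in the pool labelled vehicle, a 4.69-fold difference. Hba-x, the embryonic alpha-like globin, read 6.65 and 6.89 against 5.24 and 5.05. Both were higher without overlap, although globins are near copies and single members are uncertain. Hbb-bh1, another embryonic globin, read 3.48 and 3.24 against 3.19 and 3.11, and Klf1, the erythroid factor, 3.19 and 3.22 against 3.28 and 3.32. The list's median was 0.00, and 10 of its members lay under 5 in both pools.

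Digestive proteases were the list with the lowest median. Of 13 measured, 8 were lower in the pool labelled VEGFR2i (beside 0.371% of all genes), none was higher, and the median was -0.75 (a 1.69-fold difference). Cpb1, a carboxypeptidase, read 8.21 on both VEGFR2i arrays and 9.59 and 9.60 on the vehicle arrays. The elastase gene Cela3b read 5.89 and 5.51 against 6.92 on both arrays. Try10, a trypsinogen gene, read 9.77 and 9.79 against 11.01 and 10.98. The arrays of the vehicle pool were above those of the other pool for all 3. Prss3 (-0.89), Cela2a (-0.88) and Try5 (-0.77) were lower too. Ctrb1, chymotrypsinogen B, and Cpa1 differed by only -0.23 and -0.15. Trypsin and elastase genes are near copies, so their single values are uncertain.

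Lipases and granule proteins went the same way. Of 6 measured genes for lipases, their cofactor and ribonuclease, Rnase1 and Clps were lower, with a median of -0.46. The amylase genes Amy2a5 and Amy2b and the lipase gene Pnlip, also of this list, were not measured. Rnase1, pancreatic ribonuclease, read 5.30 and 5.15 against 6.57 and 6.52. Clps, the cofactor of lipase, read 10.23 and 10.28 against 11.17 on both arrays. Of 18 zymogen granule genes, 8 were lower (beside 0.371% of all genes) with a median of -0.50. Sycn, syncollin of the granule membrane, read 7.37 and 7.28 against 8.82 and 8.80, the lowest difference of the listed genes at -1.48. Reg1, a secreted protein of acini, read 9.50 and 9.45 against 10.55 and 10.60. Spink1, the trypsin inhibitor, differed by -0.96, Erp27, a chaperone, by -0.68 and Cckar, the cholecystokinin receptor, by -0.65. Across the 3 acinar lists, 18 of 37 genes were lower and 36 differences were negative, with a median of -0.53.

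Promoters of 3 of these genes are shown because the factor PTF1, which drives acinar genes, binds a bipartite site that includes an E-box. Among genes with a promoter entry, they are the 3 largest decreases whose window holds the letters CACCTG on either strand. They were chosen as above, and the build is again GRCm38.p6. Capitals mark the match, which is CAGGTG on the opposite strand.
Cpb1, chr3:20275734-20275983, minus strand: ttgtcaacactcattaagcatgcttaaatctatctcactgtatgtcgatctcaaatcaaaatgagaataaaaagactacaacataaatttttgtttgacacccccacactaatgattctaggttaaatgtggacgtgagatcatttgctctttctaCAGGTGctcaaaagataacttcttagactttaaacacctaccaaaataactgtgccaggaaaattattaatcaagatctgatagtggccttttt
Cela3b, chr4:137430521-137430770, minus strand: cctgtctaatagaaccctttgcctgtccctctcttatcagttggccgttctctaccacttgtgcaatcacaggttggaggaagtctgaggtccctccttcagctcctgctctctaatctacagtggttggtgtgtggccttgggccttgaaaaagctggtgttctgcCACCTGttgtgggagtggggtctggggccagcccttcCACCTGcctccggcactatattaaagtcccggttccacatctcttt
Pdia2, chr17:26199088-26199337, minus strand: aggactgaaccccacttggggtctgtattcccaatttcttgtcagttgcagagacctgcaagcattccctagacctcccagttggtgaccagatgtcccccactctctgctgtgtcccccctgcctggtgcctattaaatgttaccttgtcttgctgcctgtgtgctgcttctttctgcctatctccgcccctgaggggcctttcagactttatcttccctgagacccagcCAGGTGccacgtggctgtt
Cpb1 has 1 match, beginning 94 bases before the start, Cela3b has 2, at 83 and 46 bases, and Pdia2, a protein disulfide isomerase of acinar cells, has 1 at 19 bases. Of the 20 largest decreases, 15 had an entry and 8 of those held the letters. Among 28 acinar list members with an entry, 17 held them (60.7%), beside 16.6% of 15614 measured genes. Over called genes the shares were 39% of 59 lower genes and 10.9% of 265 higher genes. The letters TTTCCC of the other part of the site, the TC-box, were held by 9 of the 28 acinar members (32.1%). Their share was 22.6% of measured genes, 28.8% of lower genes and 24.5% of higher genes. The letters alone do not make a PTF1 site.

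Factors of the acinar programme lay on the same side as its products. Bhlha15, the factor MIST1 of secretory cells, read 7.18 and 7.20 in the pool labelled VEGFR2i and 8.20 and 8.08 in the pool labelled vehicle. Rbpjl, a subunit of PTF1, read 8.09 and 8.07 against 8.83 and 8.77. These 2 of 7 were lower, with the vehicle arrays above the others. Ptf1a, the DNA-binding subunit, read 6.81 and 6.69 against 7.37 and 7.29 and narrowly missed the rule. Gata4 differed by -0.52, Nr5a2 by -0.33, Xbp1 by -0.20 and Gata6 by 0.04, and the median was -0.52.

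Genes of the endoplasmic reticulum secretory machinery were shifted by little. Of 32, 6 were lower and 30 differences were negative, but the median was only -0.14. Ero1b, an oxidase of secretory cells, read 7.29 and 7.15 against 7.92 and 7.98. Derl3, of protein degradation, read 4.79 and 4.85 against 5.50 on both arrays. Sdf2l1, a chaperone partner, differed by -0.62 and Sec61b, of the translocon, by -0.66. The other probe sets of Sec61b gave -0.58 and -0.54, and its call was lost without the first array of the pool labelled VEGFR2i. Hspa5, the main chaperone and a marker of unfolded protein stress, read 11.20 and 11.21 against 11.19 and 11.23, so the arrays overlapped. Pdia2 and Erp27 are also granule list members.

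Endocrine genes showed no hormone or factor past the rule. Of 12 hormone genes, none was called and the median was -0.14. Ins2, insulin, read 8.49 and 8.51 in the pool labelled VEGFR2i and 8.80 and 8.86 in the pool labelled vehicle, or -0.33 as a difference. Gcg, glucagon, differed by -0.15 and Iapp, amylin, by -0.48. Of 21 granule and beta cell genes, Slc30a8, the zinc transporter of insulin granules, and G6pc2, a glucose phosphatase, were lower. Slc30a8 read 5.15 and 5.06 against 5.84 and 5.77, and G6pc2 read 6.16 and 6.11 against 6.75 and 6.74. G6pc2 lost its call without the repeat array of the pool labelled VEGFR2i. Of 17 endocrine factors none was called, the median was -0.01 and the range was -0.24 to 0.17. Irx2 at -0.17 and Pax4 at 0.17, factors of alpha and beta cells, show how small these differences were.

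Most epithelial genes had small negative differences. Among 19 genes of epithelial junctions, 18 differences were negative and none was called, with a median of -0.22. Ocln, occludin, read 7.94 and 7.89 against 8.36 and 8.35, and Dsg2, a desmosomal cadherin, read 8.85 and 8.96 against 9.27 and 9.30. Among 21 duct genes, 19 differences were negative, with a median of -0.21. The positive ones were Tspan8, a tetraspanin that was called higher at 0.68, and Car2, a carbonic anhydrase, at 0.33, while Muc1, an apical mucin, differed by -0.40. Progenitor factors had a median of -0.10 over 13 genes, 3 of them positive, and no call, with Hnf4a, a factor of endoderm, at -0.24. The acinar median of -0.53 lies beyond these epithelial medians, and the part of the epithelial share in it was not tested.

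Growth and stress lists lay near the median of all genes. None of 32 cell cycle genes was called, with a median of 0.03, and Mki67, the proliferation antigen, read 9.30 and 9.31 in the pool labelled VEGFR2i and 9.47 and 9.56 in the pool labelled vehicle. None of 11 p53 and apoptosis genes was called (median 0.00). Of 27 hypoxia and glycolysis genes, Stc1, stanniocalcin (0.94), and Pfkp, a phosphofructokinase (0.62), were higher, with a median of 0.02. Pfkp lost its call without the first array of either pool. None of 9 reference genes, such as Actb, actin (0.11), and Hprt, of purine salvage (-0.04), was called.

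Signalling lists held single exceptions. In the TGF-beta and BMP list, 3 of 21 genes were higher: the ligand gene Tgfb1 read 7.89 and 7.77 against 6.22 and 6.17, its target Tgfbi differed by 0.97 and the activin subunit gene Inhba by 0.74. In the ALK1 list of 8, Eng, its coreceptor endoglin, read 7.73 and 7.89 against 6.16 and 6.27. Acvrl1, the receptor ALK1, differed by 0.61 and lost its call without the repeat array of the pool labelled vehicle. The Id genes, targets of BMP signalling, differed by -0.25 (Id2), -0.12 (Id1) and -0.10 (Id3). Igfbp3, a binding protein of insulin-like growth factors, read 9.42 on both arrays against 8.53 and 8.41, the call of 11 in its list. Aldh1a1, of retinoic acid synthesis, read 7.77 and 7.73 against 8.65 on both arrays, the call of 14 in its list. Hhip, a Hedgehog antagonist, differed by -0.66 and was lost without the repeat array of the pool labelled VEGFR2i. Neither the 11 FGF genes (median -0.03) nor the 22 Wnt genes (median 0.07) held a call. Among the latter, Frzb, a secreted antagonist, differed by -0.56.

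Neighbouring tissues and sex were checked by their genes. Of 15 liver and plasma protein genes none was called, with a median of -0.04. Of 12 gut and spleen genes, Tlx1, the spleen factor, was higher (6.16 and 5.95 against 5.12 and 5.08) and Tff2, a stomach trefoil peptide, was lower (4.32 and 4.45 against 5.03 and 5.04). Of 16 neural genes, Fabp7, of glia, was higher by 0.74, with a median of -0.06. The sex-linked genes Xist (0.09), Kdm5d (-0.02), Eif2s3y (-0.13) and Uty (-0.14) were not called.

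Most called genes were in none of the lists, 218 of the higher genes and 45 of the lower ones. Gimap4 and Gimap6, GTPases of immune cells and endothelium, read 6.14 and 5.17 against 3.43 and 3.45, and 6.04 and 6.01 against 3.91 and 3.90. The arrays of the pool labelled VEGFR2i were themselves apart for Gimap4, and the genes of this cluster are near copies. Tmem255a, a membrane protein gene, read 8.41 and 8.35 against 6.54 and 6.40, and Ebf1, a factor of B cells, fat and stroma, 7.22 and 7.03 against 5.33 and 5.40. Plau, urokinase, differed by 1.72, and its receptor gene Plaur, a tip cell list member, by 0.99. The chemokine genes Ccl3 (1.66) and Ccl9 (1.37) and the integrin gene Itga2 (1.45) were higher as well.

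Among lower genes outside the lists, leaving out predicted genes and receptor clusters, Sostdc1, a secreted antagonist of BMP and Wnt signals, had the largest difference, at 6.11 and 6.07 against 7.19 and 7.21. Several of the other named genes encode enzymes. Gstm1, a glutathione transferase, read 10.01 and 9.90 against 10.79 and 10.70. Ugt2b34, a glucuronosyltransferase, read 8.81 and 8.75 against 9.61 and 9.60. The pools did not overlap for these. Mat1a, which makes S-adenosylmethionine, differed by -0.81, Aldh1b1, an aldehyde dehydrogenase, by -0.76, and Pipox, which oxidizes pipecolic acid, by -0.73. Gstm3 differed by -0.83 on the probe set used and by -0.39 on its other probe set. Ccn3, a matricellular protein, and F10, coagulation factor X, both differed by -0.82.

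The fresh bud pools allow the same genes to be read beside the explants, in pools that share no sample with them. There 110 genes were higher with the VEGF transgene (0.552%) and 186 were lower (0.933%). Of the 363 genes higher in the explants labelled VEGFR2i, 41 were also higher in the VEGF buds, 11.3% of the explant list and 37.3% of the bud list. Esm1, Flt1, Kdr, Emcn, Erg, Robo4 and Plvap were among the 41. Of the 363, 310 had a positive difference in the buds, with a median of 0.25, and 10282 of all 19938 genes were positive there. Of the 74 lower genes, 55 were negative in the buds, with a median of -0.08. The sizes differed, for Cdh5 4.10 in the explants and 0.51 in the buds, and for Cxcr4 2.53 and 0.15. The macrophage list had a median of 0.77 in the explants and 0.02 in the buds, and no member was called there. The difference between the experiments was not tested.

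**Figure D5:**
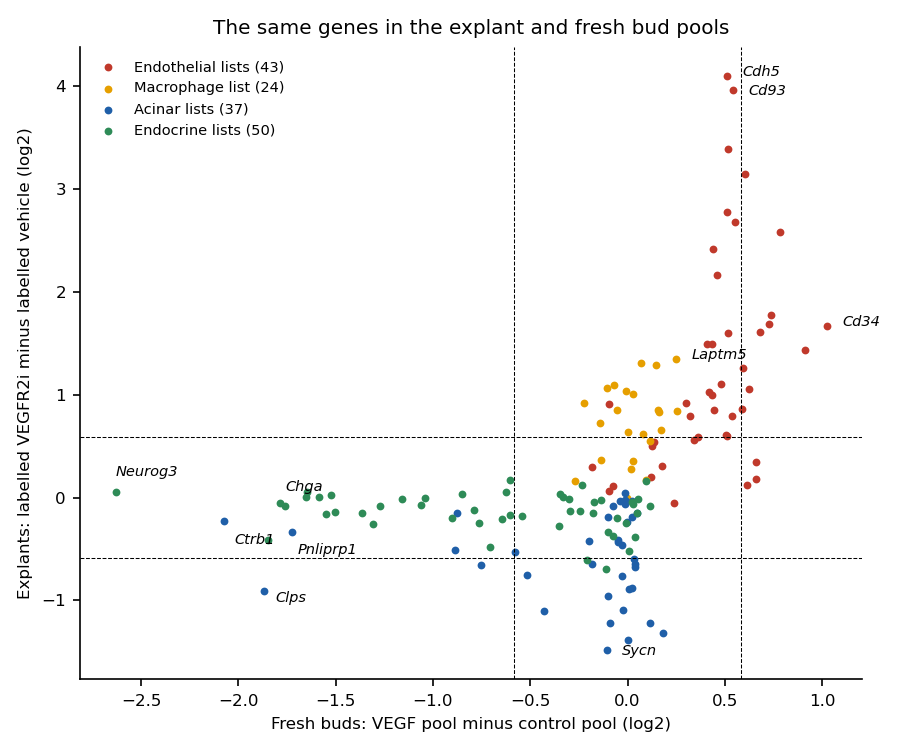
Log2 differences of listed genes in the explants (y axis, VEGFR2i minus vehicle) against those in fresh buds (x axis, VEGF minus control), with dashed lines at 1.5-fold. Endothelial genes (red) are spread vertically up to 4.10, endocrine genes (green) horizontally down to -2.63 and acinar genes (blue) in both directions.

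Epithelial and secretory genes are set side by side in the same way. Neurog3 differed by 0.06 in the explants and by -2.63 in the buds, and the endocrine factors had medians of -0.01 and -0.60. Among enzymes, Cpb1 differed by -1.38 in the explants and by 0.00 in the buds, and Sycn by -1.48 and -0.11. In the bud pools Cpb1 read 2.98 and 2.97 and Sycn 4.03 and 4.14, all under 5. The lowest value of any array was 2.41, so Cpb1 had little room for a decrease in the buds. Whether the level of Sycn limited its bud difference was not tested. The larger decrease was in the buds for Ctrb1, at -0.23 and -2.07, and for Pnliprp1, a lipase-related protein, at -0.33 and -1.72. Pnliprp1 averaged 12.52 with the label VEGFR2i and 12.85 with the label vehicle, and the highest value of any array was 13.57. Whether this level limited its explant difference was not tested. Clps was lower in both, by -0.91 and -1.87. It was 1 of 7 genes lower in both experiments, with Aldh1b1, Cbs, Cckar, Mat1a, Niban1 and Ugt2b34, which is 9.46% of the 74 and 3.76% of the 186. No gene was lower in the explants and higher in the buds, 0% of the 74 beside 0.552% of all genes. The opposite combination held 4 genes, 1.10% of the 363 beside 0.933% of all genes. Both shares thus lay near those of all genes. These 4 were Has2 (0.96 and -0.92), the neutrophil granule gene Ngp (0.78 and -0.71) and the symbols AY036118 and Usp17ld. The latter pair stand for sequences with several copies, so their values are uncertain. Genes of erythroid cells and megakaryocytes, higher in 7 of 14 and 6 of 9 cases in the buds, were higher in 2 of each in the explants.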

How the data were processed

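The data are 8 Affymetrix mouse gene 1.0 ST arrays, of which the 4 explant arrays were compared. What the authors deposited is 1 log2 value for each probe set after robust multi-array averaging (RMA), done with Partek Genomic Suite 6.5 as the design text of the series states. Targets were made from 300 ng of RNA, per the labels' protocols. That the scale is log2 follows from the range of 2.41 to 13.57, and the medians of the explant arrays were 4.29 to 4.33. The sources used here do not say if explants and buds were normalized together, so levels were compared within each set only. RMA shrinks differences of dim genes and can remove a shift that most genes share.

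Probe sets were named through GEO's platform annotation: of 35399, 21789 had 1 symbol, 1621 several and 11989 none listed, and only the first were used. Entrez IDs of 21698 matched RefSeq (GRCm38.p6), and 0 symbols needed updating. The probe set with the highest mean stood for each of 999 genes with several, which left 19938 genes. Promoters came from RefSeq.

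Arrays of a pool were averaged. With 1 pool per group there is no test of the treatment, and p-values over arrays measure hybridization error. Calls used the size rule given above. The 55 lists held 829 genes, 776 of them measured. The members and lists were chosen with earlier results of these data known. Named genes were up to 6 per list by absolute difference, the 20 largest differences and 15 outside the lists in each direction, 3 on each side of the threshold and 7 chosen genes, without predicted genes and receptor clusters. Names beyond that, such as Cpa1, Ctrb1, Klf2, Apln, Lama5, Lamb3, Sema3c, Vtn, Anpep, Hspa5, Cd163, Ms4a7 and those shared with the buds, were chosen with their values in view. The size rule was tested on simulated data with shifts planted over noise of repeat arrays. That simulation held no spread between pools, so it cannot show how often the rule calls such spread. Python 3.11.15 with pandas 2.3.3 and R 4.3.3 with limma 3.58.1 were used. Alternatives left out each array, took first arrays and repeats as blocks, averaged probe sets, recentred or requantiled the arrays, left out dim genes, or used 2-fold, the methods' t-test or limma.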

Additional observations from a re-analysis of the deposited data

How the results depend on the processing

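No named gene that passed the rule reversed its direction under the alternatives run. The rule asks all array pairs to share a sign, so leaving out arrays or taking blocks could not have reversed one. Medians of lists near 0 did change sign, as for the sphingosine list (0.02 without the first array labelled vehicle). With each of the 4 arrays left out in turn, the number of genes higher in the pool labelled VEGFR2i was 346 to 399, and of genes lower in the pool labelled VEGFR2i 73 to 86. The replicate block, in which first arrays and repeats had to pass 1.5-fold separately, gave 301 and 52, all of them among the 363 and 74. The labels pair nothing beyond first and repeat arrays, and deviations of first arrays from repeats correlated at -0.15 between the pools, so these pairs were not used as a design. Averaged probe sets gave 360 and 75, centred arrays 380 and 69, quantile normalization 353 and 76, and genes at 5 or more in a pool 316 and 66. At 2-fold, 123 were higher and 10 lower. The methods' t-test over arrays, which measures hybridization error only, gave 336 and 69 unadjusted and 0 and 1 after Benjamini-Hochberg adjustment, and limma over arrays gave 352 and 71. The endothelial median ranged from 0.89 to 1.02 with an array left out, lowest without the repeat array labelled vehicle, and was 1.49 without dim genes. The macrophage median ranged from 0.73 to 0.81, lowest without the first array labelled vehicle, and was 0.885 without dim genes. The acinar median ranged from -0.59 to -0.54, at -0.59 without the first array labelled vehicle and -0.58 without the repeat labelled VEGFR2i, and was -0.68 without dim genes. Leaving out dim genes kept genes at 5 or more in only 1 pool, so members could pass through the pool where they were higher. The larger medians it gave are therefore no support for the differences. Of the named genes, the block lost 11 of 133 higher and 8 of 43 lower calls.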
